A study of Mus musculus with 52 samples.

Results

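Clone A4 is 1 of 4 control clones of ciliated Cilia-APEX-IMCD3 cells, and its 4 libraries were compared with the 12 libraries of the other 3 ciliated control clones, D8, H12 and G7, to describe how control clones of the same line differ in gene expression. IMCD3 is an immortalised mouse line from the inner medullary collecting duct of the kidney, and the parent cells carried the Cilia-APEX construct, an enzyme directed to the cilium. The members were taken by their titles, 4 of the 52 libraries of the series. The control clones carry genotype "control" and treatment "CRISPR" in the labels. They received the cytosine base editor BE4-Gam and the guide vector BPK1520 in repeated transfections, with no target oligo, and were sorted as single cells and grown to clones, so that a clone stands for the progeny of 1 sorted cell. No control clone carries an intended edit. Ciliated cells were serum-starved according to the study's methods. The labels list 10% serum in the medium of every library, and the ciliated state used here is the one that the labels give. The 4 libraries of a clone are technical replicates. The p-values below therefore measure A4 against the spread among libraries, and with 1 clone against 3 the smallest exact permutation p over clones would be 0.25.

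Epithelial cells that stem from one line can settle into different, heritable levels of the same programs after single-cell cloning. The collecting duct descends from the ureteric bud and is an epithelium held together by E-cadherin, claudins and simple keratins, resting on a basement membrane of type IV collagen and laminin. Nrf2 (Nfe2l2) is the transcription factor that raises glutathione synthesis and detoxification when cells are oxidised, acting through antioxidant response elements. The Zscan4 genes and their companions are known from the cleavage-stage mouse embryo and from rare embryonic stem cells, where the factor Dux switches them on.

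The 16 control libraries held 14816218 to 28084979 counts, and all but G7 library 4 held at most 20038499. Library 1 of A4 stood apart from the other A4 libraries: over the 12325 genes tested, its log2 CPM (the read count of a gene relative to the TMM-scaled size of its library) correlated with theirs at r = 0.978 to 0.986, whereas A4 libraries 2, 3 and 4 correlated with each other at up to 0.993. The same library correlated at 0.967 to 0.968 with H12, more than the other A4 libraries did (0.943 to 0.957). Between clones, A4 was nearest to D8 (r = 0.954 to 0.97) and H12 (0.943 to 0.968) and farthest from G7 (0.878 to 0.899). Epithelial markers were detected in A4 at the following levels, Cdh1 (641 to 685 CPM), Epcam (823 to 898), Krt8 (592 to 924), Krt18 (949 to 1342), Pax2 (93.1 to 170) and Pax8 (276 to 298). The water channel Aqp2, the defining marker of principal cells, had 0 counts in all 16 libraries, and Aqp3 and Gata3 were at or below 0.667 CPM in A4. G7 differed from the rest in this respect, with 14.7 ± 3.01 CPM (SD, n = 4) of Cdh1. Wdr34 and Wdr60, the genes edited in the mutant clones of the series, and the dynein-2 heavy chain Dync2h1 were not called, with log2 fold changes of 0.12, 0.04 and -0.17.

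**Figure D1:**
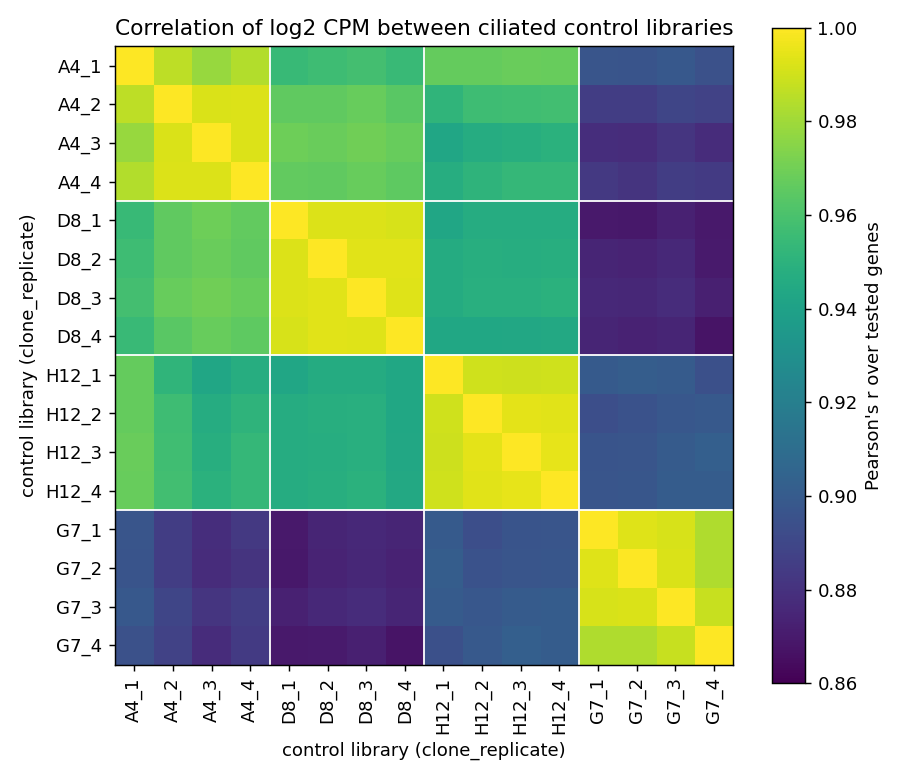
Pearson's r of log2 CPM between each pair of the 16 ciliated control libraries (axes: clone and replicate number, colour: r from 0.86 to 1). A4 library 1 is greener against the other A4 libraries (0.978 to 0.986) than they are among themselves, and every G7 library is blue to violet against A4 (0.878 to 0.899).

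Fitted with edgeR's quasi-likelihood test, 65 genes (0.527% of those tested) were higher in A4 and 212 (1.72%) were lower, counting genes whose log2 fold change was 1 or more in either direction and whose Benjamini-Hochberg adjusted p was under 0.05. Genes that meet both limits are termed called below. The count filter asks for 0.591 CPM in 4 libraries. Of the 12325 genes tested, 77 had fewer than 4 libraries outside A4 at that level, among them 21 of the 65. These 21 were tested only through their level in A4, which favours a higher call. Their calls, p values and fits without 1 library are a description and support nothing, and each such gene named below is said to have passed through A4. Conversely, 63 of the 212 had no A4 library at that level, so that they were tested only through the other clones. Their calls, p values and fits without 1 library or clone are likewise a description and support nothing. Named below, these were Apba1, Apln, Aqp1, Axin2, Cdk14, Ddr2, Fam73a, Fstl1, Islr, Pcdhgb7, Plscr4, Plvap, Rgs2, Rgs9, Sema3d, Stk39, Tg and Tspyl5. Without regard to the test, all 4 A4 libraries lay above all 12 others for 386 genes (3.13%) and below them for 361 (2.93%), together 747 (6.06%), and of the called genes 45 of 65 and 135 of 212 were separated in this way. In the same fit with another clone set apart, 5.02% of genes were called for D8, 4.08% for H12 and 18.2% for G7, against 2.25% for A4. The share of genes without overlap was likewise lowest for A4, at 6.06% against 14.9% for D8, 12.5% for H12 and 29.5% for G7. With 1 coefficient per clone, A4 differed from D8 in 809 genes (6.56%), from H12 in 1223 (9.92%) and from G7 in 2550 (20.7%). These 3 comparisons share the A4 libraries. When the clone was taken as the unit, no gene was called, either with the libraries of a clone summed (edgeR, 141 genes at an unadjusted p under 0.05) or with the clone as a block (voomLmFit in limma, 419 genes), against 3105 in the fit by library. Without A4 library 1 the counts were 88 higher (0.707%) and 175 lower (1.41%), without G7 they were 107 (0.878%) and 407 (3.34%), and without A4 library 2, 3 or 4 they ranged from 30 to 40 higher and from 68 to 87 lower. Of 102 called genes examined singly, 36 kept their call whichever of the 16 libraries was left out. Another 3, Zscan4d, Zscan4f and Gm4858, kept it in the 15 fits in which they were tested. These 3 passed through A4, as did Car13, Gm2016, Pramef25, Zfp352, Zscan4a, Zscan4b and Zscan4c among the 36. Fam73a, Pcdhgb7, Sema3d, Stk39, Tg and Tspyl5 among the 36 were tested only through the other clones. For all of these genes the kept call supports nothing. Where the call of a gene named below depended on 1 A4 library, this is given with the gene.

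The largest differences upward in A4 included genes of the embryonic cleavage stage. All 5 Zscan4 genes in the count tables, Zscan4a, Zscan4b, Zscan4c, Zscan4d and Zscan4f, encode zinc finger proteins with a SCAN domain and were called higher. Promoter windows were at hand for 4 of them, all but Zscan4a, and matched pairwise at 95.3% to 99.3% of overlapping bases. The most alike pair is shown to illustrate how near these copies are: the windows of Zscan4c (chr7:11005495-11005794, plus strand) and Zscan4f (chr7:11397665-11397964, plus strand), from RefSeq on GRCm38.p6, matched at 275 of 277 bases (99.3%) once shifted by 23 bases. Each window runs from 250 bases before to 50 bases after the gene's start, 5′ to 3′, and the capitals mark the one match to a Dux-type motif, TGATT and ATCA with any 2 bases between them, here on the reverse strand.
Zscan4c: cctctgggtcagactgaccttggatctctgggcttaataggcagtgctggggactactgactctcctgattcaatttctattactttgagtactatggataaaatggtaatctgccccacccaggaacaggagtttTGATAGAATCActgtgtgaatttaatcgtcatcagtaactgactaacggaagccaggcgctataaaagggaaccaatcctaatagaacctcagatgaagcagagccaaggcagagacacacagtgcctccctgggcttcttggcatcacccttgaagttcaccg
Zscan4f: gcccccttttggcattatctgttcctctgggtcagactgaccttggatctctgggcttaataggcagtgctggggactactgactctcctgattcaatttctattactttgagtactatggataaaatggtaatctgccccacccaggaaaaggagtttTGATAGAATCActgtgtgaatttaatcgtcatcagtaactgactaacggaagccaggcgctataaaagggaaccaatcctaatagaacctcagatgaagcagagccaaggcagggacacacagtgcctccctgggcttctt
Searched on both strands, this pattern was found in 4 of the 4 windows at hand for the 5 genes and in 68 of 32851 windows of all genes (0.207%). The pattern was chosen with these windows in view, and the match is a description of the sequence only. Since the transcripts are near-identical copies, reads may be split between them by the counting, and the summed level is the safer value.

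Summed over the 5 Zscan4 genes, A4 libraries 1, 2, 3 and 4 had 3.49, 17.6, 33.6 and 19.5 CPM (64, 264, 626 and 337 counts). The D8 libraries had 0.489, 0.606, 2.65 and 0.193 CPM, the H12 libraries 0, 0.0514, 0.746 and 3.21, and the G7 libraries at most 0.0623. Every A4 library was above every other library, but A4 library 1 exceeded the highest of them, H12 library 4, only narrowly, and the libraries of A4, D8 and H12 each varied by more than a few fold. Of the single genes, Zscan4c was at 0.655, 5.2, 7.04 and 4.52 CPM in A4 and at most 0.553 elsewhere (log2 fold change 4.96, SE 0.82, adjusted p = 0.00268). Zscan4a was at 1.04, 1.87, 2.79 and 3.24 CPM against at most 0.498 (4.67, SE 0.81, adjusted p = 0.00392). For Zscan4b, Zscan4d and Zscan4f, A4 library 1 lay within the range of the others, with log2 fold changes of 4.58 to 4.78. In the fits without 1 library the adjusted p values were up to 0.0496, and Zscan4d and Zscan4f were tested in 15 of the 16, but since these genes passed the count filter through A4, their calls are given as a description. Zscan4b, Zscan4d and Zscan4f were picked after their values were seen.

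Other genes of the same embryonic stage were higher as well. Beyond the Zscan4 family, 25 of 26 such genes were in the tables, 10 had enough counts to be tested and 9 were called higher; this list was drawn up after the values were seen. Apart from Nanog, the tested genes had at most 0.862 CPM in any library outside A4 and passed the count filter through their level in A4, as did the Zscan4 genes. The filter thus favoured their calls, and the counts of called genes support nothing. Zfp352, a zinc finger gene of the zygote, was at 1.04, 1.53, 3.12 and 1.74 CPM in A4 and at most 0.609 elsewhere (log2 fold change 4.59, SE 0.85, adjusted p = 0.00575). The deubiquitinase gene Usp17le was at 0.655 to 5.8 CPM in A4 and at most 0.609 elsewhere (4.37, SE 0.87, adjusted p = 0.00857), and its adjusted p was 0.0644 without A4 library 3. Pramef25 (4.47, SE 0.85) and the unnamed Gm2016 (4.09, SE 0.68) were likewise separated from the 12 others. Gm4858, Gm5039, Gm8300 and Gm1995 were called, with A4 library 1 inside the range of the others (0.382 to 0.491 CPM against maxima of 0.609 to 0.862), and the last 3 lost their call without A4 library 3 (adjusted p = 0.0562 to 0.0643). Dux itself, at 0 to 0.322 CPM in A4 and up to 0.182 elsewhere, was too low to be tested. The pluripotency gene Nanog was at 0.933 to 1.97 CPM in A4 and 0 to 2.21 elsewhere and was not called (0.49, SE 0.90, adjusted p = 0.764). Pou5f1, another pluripotency gene, had at most 1 count in any control library. The 3 ciliated mutant clones were scaled together with the controls. The Wdr60 clone reached 11.01 CPM of summed Zscan4 in 1 library, which carried nearly all of its mean of 2.98. The Wdr34 clones labelled 1 and 3 stayed at or below 0.277. Among the controls, D8 library 3 (2.65 CPM) and H12 library 4 (3.21) were above the other libraries of their clones. Raised levels in single libraries were thus also seen outside A4.

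**Figure D2:**
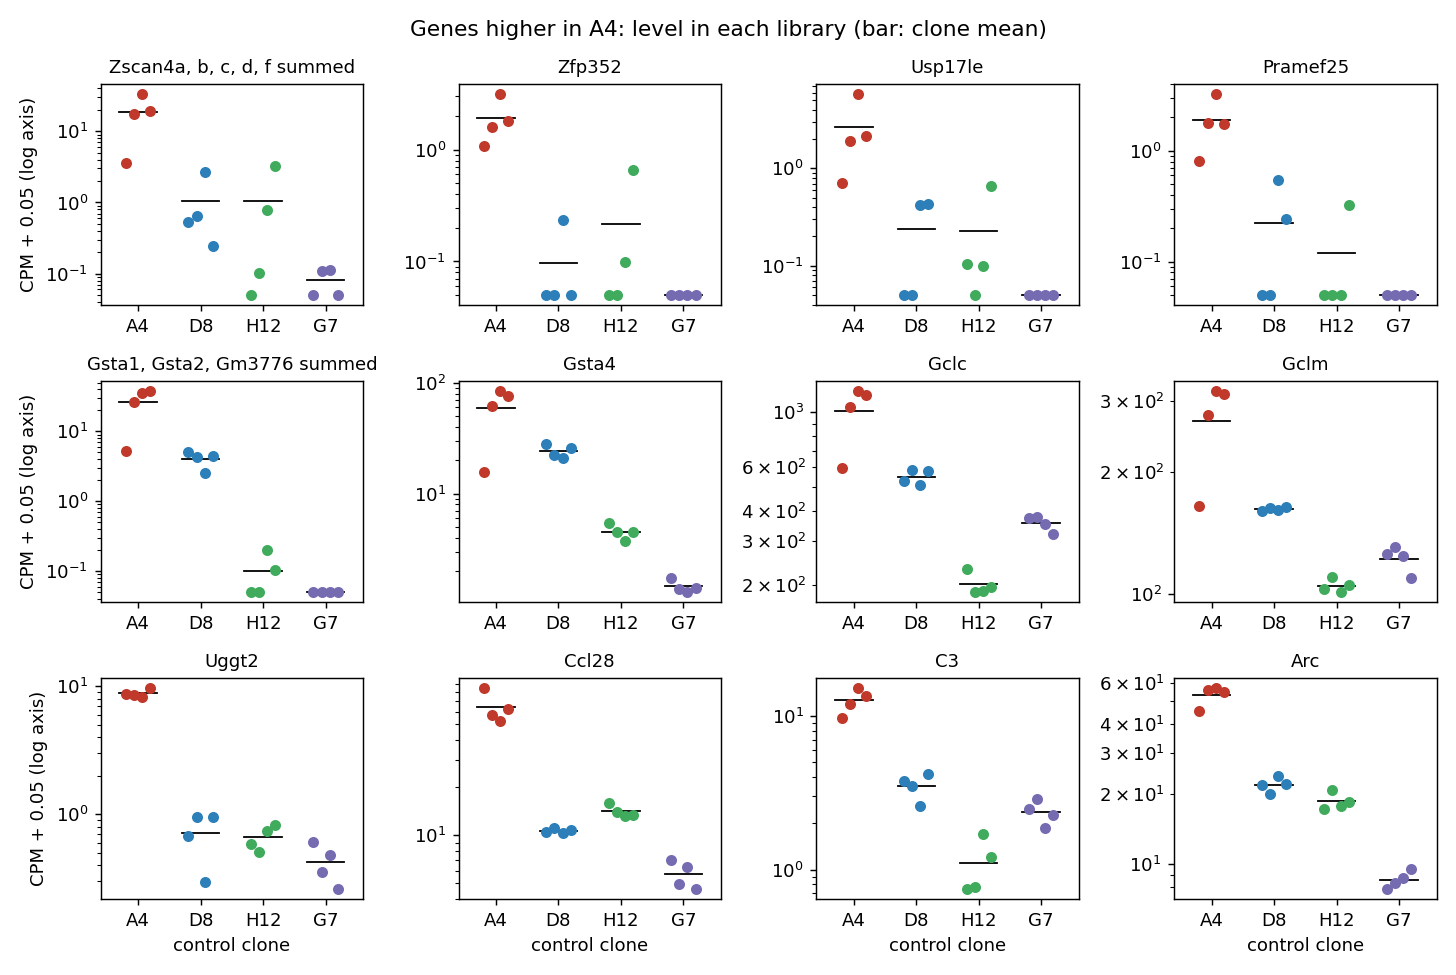
Level of genes higher in A4 in each of the 16 libraries (y axis: CPM plus 0.05 on a log axis that differs between panels, x axis: control clone, points in replicate order, bar: mean of the 4 libraries). A4 library 1, the leftmost A4 point, is the lowest of the A4 points for the summed Zscan4 genes (3.49 CPM) and for the glutathione genes Gsta4 (15.7), Gclc (596) and Gclm (165), but not for Uggt2 or Ccl28.

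Genes of glutathione metabolism and of NADPH supply were the second group higher in A4. Of 47 tested members of a list of Nrf2, glutathione and metallothionein genes, 7 were called higher, beside 0.527% of all genes, and none lower. One of the 7, Gsta2, passed the count filter only through A4. Of the 47, 40 had a positive log2 fold change and the median was 0.51, against -0.03 for all genes tested. Against single clones the median was 0.32 for D8, 0.60 for H12 and 1.14 for G7. Promoter windows of 2 of the 7 are shown for the antioxidant response element core TGACNNNGC, in capitals, which was found on the reverse strand of the Gclm window (chr3:122245307-122245606, plus strand) and of the G6pdx window (chrX:74428831-74429130, minus strand) of GRCm38.p6.
Gclm: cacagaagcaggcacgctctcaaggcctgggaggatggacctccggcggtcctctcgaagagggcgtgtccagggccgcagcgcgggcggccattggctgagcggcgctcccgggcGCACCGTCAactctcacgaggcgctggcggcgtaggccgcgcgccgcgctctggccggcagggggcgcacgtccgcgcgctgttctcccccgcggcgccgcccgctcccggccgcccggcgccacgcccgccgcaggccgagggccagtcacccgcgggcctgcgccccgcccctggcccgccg
G6pdx: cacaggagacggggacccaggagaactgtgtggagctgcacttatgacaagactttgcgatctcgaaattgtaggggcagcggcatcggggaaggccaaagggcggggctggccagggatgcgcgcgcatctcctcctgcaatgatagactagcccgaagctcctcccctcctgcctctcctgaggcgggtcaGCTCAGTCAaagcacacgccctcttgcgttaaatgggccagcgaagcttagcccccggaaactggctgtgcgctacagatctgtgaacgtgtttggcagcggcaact
Of the 5 windows at hand for the 7 genes, 3 held this core on either strand (Gclm, G6pdx and Pgd), compared with 12.4% of all windows of the same length, and its presence says nothing on binding.

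Glutamate-cysteine ligase makes the first and rate-limiting step of glutathione synthesis. Its catalytic subunit Gclc was at 596, 1053, 1224 and 1179 CPM in A4 and at 187 to 582 in the other libraries, with a log2 fold change of 1.46 (SE 0.30, adjusted p = 0.00887). Its regulatory subunit Gclm was at 165, 278, 319 and 313 CPM against 101 to 164 (1.05, SE 0.17, adjusted p = 0.00201), and A4 library 1 thus cleared the D8 libraries by little. Gclm fell under the fold limit without A4 library 3 or 4, or without H12 or G7 (log2 fold change down to 0.91 without H12), at adjusted p values up to 0.0174. The 2 oxidative enzymes of the pentose phosphate pathway, which regenerate NADPH, were G6pdx at 198, 267, 287 and 308 CPM against 83.7 to 178 (1.12, SE 0.21, adjusted p = 0.00695) and Pgd at 336, 598, 686 and 644 CPM against 171 to 390 (1.19, SE 0.26, adjusted p = 0.0131). Pgd lost its call without A4 library 2, 3 or 4 (adjusted p up to 0.0686) or without H12 (log2 fold change 0.996), and G6pdx went under the fold limit without G7 (0.91). Gclm, G6pdx and Pgd were picked after their values were seen.

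The alpha-class glutathione transferases, which conjugate glutathione to lipid peroxidation products, differed most within the list. Gsta1, Gsta2 and Gm3776 are close copies, and summed they reached 5.13, 25.9, 35.2 and 38.1 CPM in A4, 2.46 to 4.96 in D8, 0 to 0.149 in H12 and 0 in G7. All 4 A4 libraries were above the 12 others, library 1 again by a small margin. Gsta1 alone had a log2 fold change of 4.48 (SE 1.09, adjusted p = 0.0222) and Gsta2, which passed the filter through A4, one of 3.25 (SE 0.94, adjusted p = 0.0457). Gsta4 was at 15.7, 61.5, 85 and 75.8 CPM against 24.2 ± 3.22 in D8 (SD, n = 4), 4.51 ± 0.66 in H12 and 1.41 ± 0.189 in G7, so that A4 library 1 was below D8 (2.57, SE 0.75, adjusted p = 0.048). The call of Gsta1 was lost without A4 library 2, 3 or 4 (adjusted p up to 0.0879). So was that of Gm3776 (log2 fold change 4.41, adjusted p up to 0.0985), which was also lost without H12 (0.0539). With the DESeq2 Wald test, Gsta1 and Gsta2 were not called. Gsta2 and Gsta4 kept their calls in only 5 of the 16 fits without 1 library (adjusted p up to 0.162) and lost them without H12 (0.102 and 0.146). Sqstm1, an autophagy receptor that Nrf2 also regulates and that was picked after its values were seen, was at 1339, 2445, 2726 and 2692 CPM in A4 against 731 to 1761 (1.04, SE 0.27, adjusted p = 0.0274), a call kept in 10 of 16 fits without 1 library (adjusted p up to 0.12) and lost without H12 or G7. Without A4 library 1 the list had 7 higher calls and a median of 0.48, without D8 it had 19, without H12 it had 5, and without G7 it had 6 higher and 1 lower. In the same order, the higher calls over all tested genes were 88 of 12452, 480 of 12172, 114 of 12129 and 107 of 12192. Without G7, 407 of all genes were lower.

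Single genes outside these 2 groups were higher in A4 with little spread between its libraries. Uggt2, a glucosyltransferase that checks glycoprotein folding in the endoplasmic reticulum, was at 8.62, 8.53, 8.11 and 9.67 CPM in A4 and 0.211 to 0.909 in the 12 others, with a log2 fold change of 3.97 (SE 0.28, adjusted p = 9.41e-07). It was the called gene upward with the smallest adjusted p among those examined here, and it held without each library and each clone. Of 14 genes tested within 3 Mb of the start of Uggt2 on chromosome 14, none of the other 13 was called. In the 12 libraries of ciliated mutants, Uggt2 was at 0.317 to 1.66 CPM, so that A4 was above all other ciliated libraries.

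Ccl28, a chemokine of mucosal epithelia, was at 84.8, 57.3, 52.2 and 62.5 CPM in A4 against 4.54 to 16 elsewhere (log2 fold change 2.66, SE 0.26, adjusted p = 3.56e-05). C3, the central complement protein, was at 9.66 to 15.2 CPM against 0.695 to 4.11 (2.47, SE 0.35, adjusted p = 0.00112). The tetraspanin Tspan8 was at 105 to 123 CPM against 26.8 to 53.8 (1.40, SE 0.18, adjusted p = 4.79e-04). These 3 genes were separated from all other libraries and kept their calls without each library and each clone. The galectin Lgals3, at 223 to 315 CPM against 63.3 to 158 (1.23, SE 0.22), and the calcium-binding S100a6, at 634 to 802 CPM against 153 to 478 (1.09, SE 0.27), were also above all others. Both fell under the fold limit without G7 (0.97 and 0.77), and S100a6 also lost its call without A4 library 2, 3 or 4 (adjusted p up to 0.102). In the ciliated mutants C3 reached 11.04 CPM in the Wdr34 clone labelled 3, against 9.78 to 15.3 in A4 on that scale, while Ccl28 reached 45.9 CPM (52.6 to 85.8 in A4) and Tspan8 73.8 (106 to 123). Tspan8, Lgals3 and S100a6 were picked after their values were seen.

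The 4 genes Krt5, Car13, Rsad2 and Gramd1b passed the count filter through A4. Krt5, the basal cell keratin, was at 1.64, 3.93, 4.67 and 4.8 CPM in A4 and at most 1.19 elsewhere (log2 fold change 3.94, SE 0.85, adjusted p = 0.0125). The transcription factor Pitx1, known from hindlimb and pituitary development, was at 3.65 to 6.27 CPM against 0.14 to 1.62 (2.51, SE 0.40, adjusted p = 0.00215). The carbonic anhydrase Car13 was at 1.62 to 2.62 CPM against 0 to 0.588 (2.88, SE 0.45, adjusted p = 0.00181), but its mean was 7.09 CPM in the ciliated Wdr34 mutant clone labelled 3, beside 2.06 in A4. The antiviral gene Rsad2 was at 1.73 to 2.49 CPM against 0 to 0.976 (2.98, SE 0.67, adjusted p = 0.0144), with a mean of 2.01 CPM in the ciliated Wdr34 mutant clone labelled 3 beside 2.09 in A4, and it was the only one called of 46 tested interferon-stimulated and antigen presentation genes, so that the list had no call among genes that also reached the filter outside A4. The median of the list was -0.13. It was -0.29 without A4 library 1, 0.06 without H12, with 6 genes called higher and 2 lower, and -0.44 without D8, with 1 higher and 7 lower. Over all tested genes, 114 were higher and 265 lower of 12129 without H12, and 480 and 556 of 12172 without D8. Against single clones it was 0.37 for D8, -0.43 for H12 and -0.20 for G7. Among 23 cytokines and chemokines, with 0.527% of all genes called higher and 1.72% lower, Ccl5 (1.5, SE 0.36) and Tnfsf9 (1.02, SE 0.28) were higher and Csf1, the macrophage growth factor, was lower (-1.84, SE 0.52). The sterol carrier Gramd1b (2.44, SE 0.71, adjusted p = 0.0473) completed the 15 leading genes, and its mean was 6.18 CPM in the ciliated Wdr60 mutant clone, beside 1.54 in A4. Krt5 and Rsad2 lost their calls without A4 library 3 or 4 (adjusted p up to 0.0539 and 0.0631), Ccl5 without A4 library 2, 3 or 4 (up to 0.0857), while Tnfsf9, Csf1 and Gramd1b kept theirs in only 5, 4 and 6 of 16 fits without 1 library (up to 0.159).

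Of 32 tested immediate early genes, the fast transcriptional answer to stimulation, Arc and Ier5l were called higher, beside 0.527% of all genes. Arc was at 45.4, 56.1, 57.2 and 54.6 CPM in A4 against 7.78 to 23.9 (log2 fold change 1.71, SE 0.27, adjusted p = 0.00188), and in the ciliated Wdr34 mutant clone labelled 1 its mean was 60.4 CPM, beside 53.5 in A4. Ier5l was at 146 to 164 CPM against 28.1 to 108 (1.19, SE 0.30, adjusted p = 0.025), and its call was lost without A4 library 2, 3 or 4 (adjusted p up to 0.0933) or, by the fold limit, without G7 (0.84). The median of the list was 0.55, but against single clones it was -0.53 for D8, 1.46 for H12 and 2.40 for G7. Within A4 it was 0.14 for library 1 and 1.195, 1.32 and 1.284 for libraries 2, 3 and 4, each against the mean of the 12 others. Glycolysis and hypoxia genes had the same layout, with no call among 38, medians of -0.03 in library 1 and 0.57 to 0.77 in the others, and -0.19 against D8 but 0.91 against H12. Both lists therefore set A4 between the other clones rather than outside them.

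The 212 genes lower in A4 included single genes that were nearly silent in it. Zfhx4, a large homeodomain transcription factor gene, was at 0.764, 0.667, 0.591 and 0.637 CPM in A4 and at 8.33 to 17.2 in the other libraries (log2 fold change -4.34, SE 0.21, adjusted p = 5.56e-09). Its means in D8, H12 and G7 were 14.6 ± 2.23, 12.4 ± 0.874 and 13.8 ± 3.72 CPM (SD, n = 4 each), so that A4 alone departed from a common level. In the ciliated mutants it was at 8.62 to 48.3 CPM. Fam73a (Miga1), a mitochondrial fusion regulator, had 3 counts in the 4 A4 libraries together against 429 in the 12 others, a ratio of 0.0218 (95% exact interval 0.00449 to 0.0643, counting error only). It was low in the ciliated mutants as well, with means of 0.0908, 0.426 and 0.0418 CPM in the Wdr34 clones labelled 1 and 3 and the Wdr60 clone, compared with 1.64 to 2.38 in D8, H12 and G7. The kinase gene Stk39 (SPAK), which controls cation-chloride cotransporters, was at 0 to 0.405 CPM in A4, 1.6 ± 0.406 in D8, 9.6 ± 0.897 in H12 and 9.54 ± 0.606 in G7 (-5.38, SE 0.92, adjusted p = 0.00364). Its mean in the ciliated Wdr60 clone was 0.112 CPM, beside 0.158 in A4 on that scale. Zfhx4 kept its call without each library and each clone. So did Fam73a and Stk39, but they reached the count filter only outside A4, so that their calls are a description.

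Sema3d, a secreted semaphorin, had 0 counts in A4 and 472 in the 12 others, which is at least 50.4-fold lower with a floor of 3 counts over the A4 libraries. Plscr4, a phospholipid scramblase gene, had 0 against 214 counts (at least 22.8-fold lower), Islr, a secreted stromal protein gene, 0 against 270 (at least 28.8-fold), and the collagen receptor Ddr2 0 against 156 (at least 16.7-fold). Scaled with the ciliated mutants, Plscr4 had means of 0.33, 2.32 and 0.29 CPM in D8, H12 and G7, and Islr 0.50, 0.17 and 2.97. Plscr4 was tested in 12 of the fits without 1 library. The call of Sema3d held without each library, those of Plscr4, Islr and Ddr2 did not (adjusted p up to 0.0769, 0.118 and 0.134), and Ddr2 and Islr were at or near 0 in some H12 libraries too. None of these genes reached the count filter in an A4 library, so that their calls are a description. Tspyl5, a nucleosome assembly gene, had 2 counts in A4 against 253 elsewhere (ratio 0.0247, 95% exact interval 0.00297 to 0.0901). The vasoactive peptide gene Apln was at 0.347 to 0.537 CPM in A4, 2.04 ± 0.52 in D8, 2.75 ± 0.746 in H12 and 38.6 ± 3.56 in G7. Its log2 fold change of -5.04 (SE 1.38, adjusted p = 0.0379) was -2.46 without G7, and Apba1, an adaptor gene of neurons (-5.47, and -3.15 without G7) and Tspan15 (-4.47, and -2.45 without G7) were likewise spread by G7. Apln, Apba1 and Tspan15 each lost their calls without whichever A4 library was left out (adjusted p up to 0.141). Islr and Plscr4 were picked after their values were seen.

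Cdk14, a cyclin-dependent kinase of Wnt receptor signaling, had the largest fitted difference of the leading genes, -9.28 on the log2 scale (SE 2.17, adjusted p = 0.0184). It was at 0.328, 0.0667, 0.107 and 0 CPM in A4 (6, 1, 2 and 0 counts), 25.7 ± 2.01 in D8, 225 ± 8.59 in H12 and 2.4 ± 0.432 in G7. The call was lost without A4 library 2, 3 or 4 (adjusted p up to 0.0818). H12 was high for the whole region: all 20 genes tested within 3 Mb of Cdk14 on chromosome 5 were lower in A4 than in H12, by -0.91 to -10.68 on the log2 scale, against log2 differences from D8 of -0.85 to 1.20 for all of them but Fzd1 and Cdk14. Those 2 were at -2.27 and -7.55 against D8. Fzd1, a Wnt receptor gene, was at 2.03 to 2.84 CPM in A4, 11.9 ± 0.751 in D8, 111 ± 7.41 in H12 and 0.954 ± 0.131 in G7, and was not called (adjusted p = 0.112). Krit1, in the same region, was called (-1.48, SE 0.41, adjusted p = 0.0415), but it kept the call in only 8 of 16 fits without 1 library and its log2 fold change was -0.81 without H12. Fzd1 and Krit1 were picked after their values were seen.

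**Figure D3:**
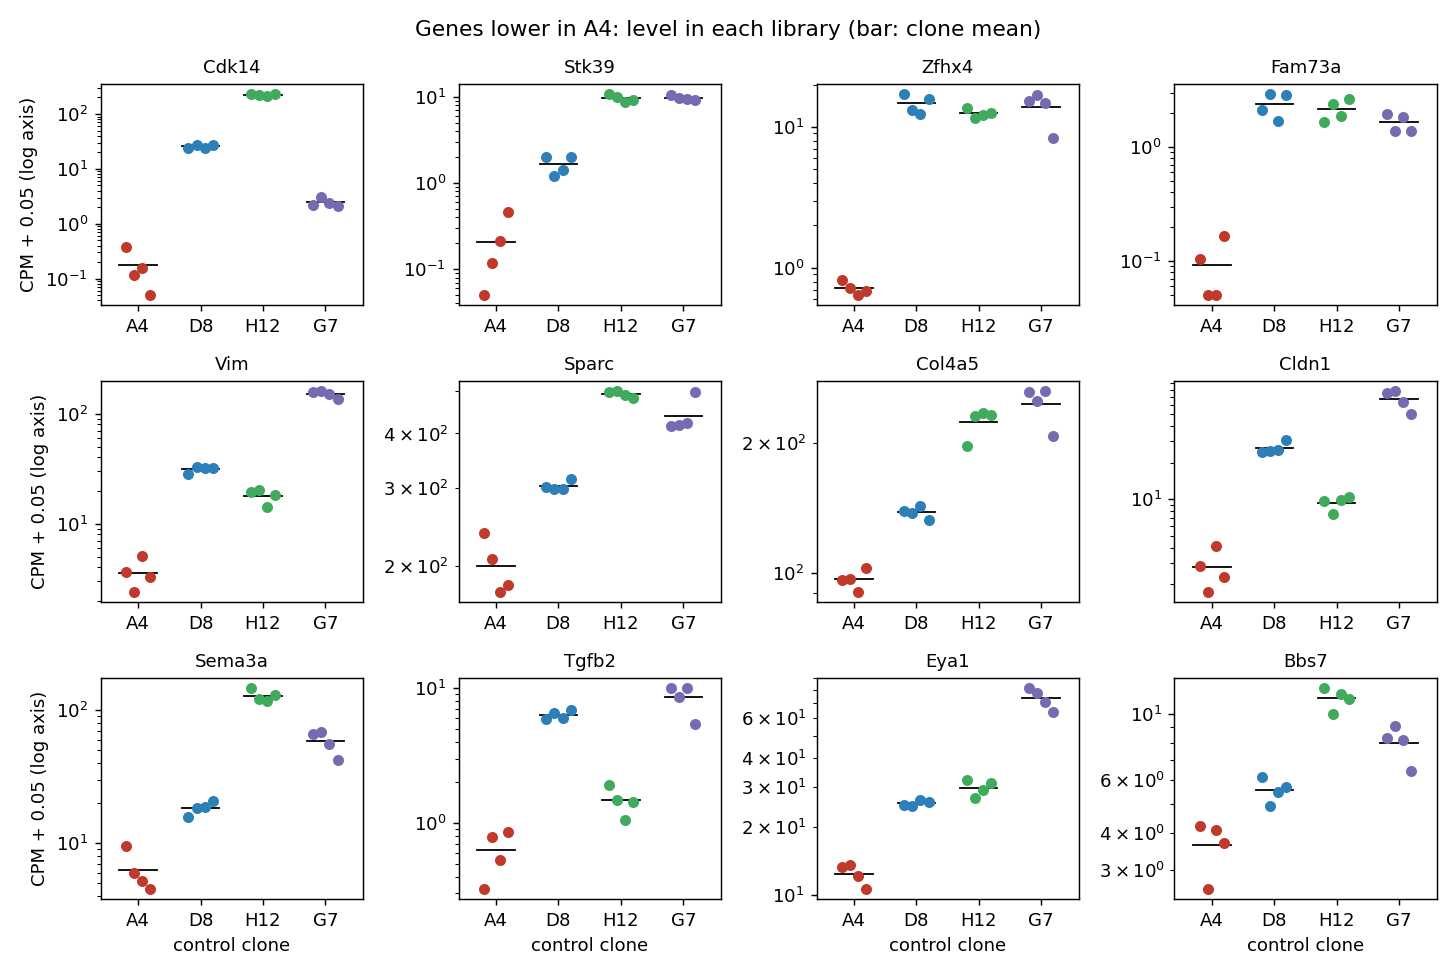
Level of genes lower in A4 in each of the 16 libraries (y axis: CPM plus 0.05 on a log axis that differs between panels, x axis: control clone, points in replicate order, bar: mean of the 4 libraries). Zfhx4 is at one level in D8, H12 and G7 (8.33 to 17.2 CPM) and lower only in A4, whereas Cdk14 and Stk39 also differ widely among the other clones.

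Some genes of the mesenchymal state and of the extracellular matrix were called lower in A4, beside 1.72% of all genes. Of 16 tested mesenchymal markers 3 were called lower and none higher (median log2 fold change -0.49), of 28 matrix glycoproteins and proteoglycans 3 (median -0.52), and of 17 collagens 2 (median -0.67). Sparc is in both the mesenchymal and the matrix glycoprotein list and is counted in each. Against the mean of the 12 others, A4 library 1 had medians of -0.85, -0.70 and -0.30 for these lists in turn. Libraries 2 to 4 had -0.36 to -0.20, -0.51 to -0.28 and -0.51 to -0.31. Without library 1, 2 members of each list were lower and 1 matrix glycoprotein was higher (1.41% and 0.707% of all genes). Vim, the intermediate filament of mesenchymal cells, was at 3.55, 2.33, 5.05 and 3.24 CPM in A4, 31.3 ± 1.99 in D8, 18 ± 2.74 in H12 and 152 ± 11.2 in G7 (-4.23, SE 0.89, adjusted p = 0.0106). All A4 libraries were below all others, also against the lowest of H12 at 14.1 CPM, and without G7 the difference was -2.80. The call of Vim was lost without A4 library 2 or 4 (adjusted p up to 0.0539). The repressor Zeb2 was at 0.601, 1.67, 3.01 and 1.79 CPM in A4 and 2.25 ± 0.317 in H12, which overlap, and 11.7 ± 0.882 in D8 (-2.54, SE 0.72, adjusted p = 0.0436, up to 0.139 without 1 library). The list medians depended on the clone A4 was set against. For D8, H12 and G7 in turn they were -1.09, 0.03 and -0.75 for mesenchymal markers, -0.53, -0.09 and -0.45 for matrix glycoproteins and proteoglycans, and -0.77, -0.26 and -0.14 for collagens. In the ciliated mutants, scaled with the controls, the Wdr34 clone labelled 1 had a mean of 4.58 CPM of Vim, within the A4 range of 2.33 to 5.09, and Zeb2, Gpc4 and Tgfb2 had means of 1.97, 11.7 and 0.483 CPM there, beside 1.77, 12.4 and 0.576 in A4. Low levels of these genes were thus also seen outside A4. Of the 15 leading genes in each direction, some did not overlap between A4 and the 12 ciliated mutant libraries. These were Zfp352, Gsta1, Pramef25, Uggt2, Krt5, Ccl28 and Pitx1 among the higher, and Cdk14, Sema3d, Apln, Zfhx4, Tubb3, Tg and Cilp2 among the lower genes. The share of all tested genes without such overlap was not worked out, so that this describes these genes only.

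Sparc, a collagen-binding glycoprotein of the basement membrane, was at 238, 206, 174 and 180 CPM in A4 against 299 to 500 (log2 fold change -1.04, SE 0.17, adjusted p = 0.00298), and passed under the fold limit without A4 library 3 or 4 or without H12 (-0.90). Col4a5 and Col4a6, neighbouring genes on the X chromosome that encode type IV collagen chains, were lower together. Col4a5 was at 96.5, 97.1, 90.3 and 103 CPM against 133 to 264 (-1.07, SE 0.20, adjusted p = 0.00655), and Col4a6 at 45.9, 37.7, 36.2 and 36.5 CPM against 48.7 to 135 (-1.29, SE 0.29, adjusted p = 0.0143). Both were nearest to D8, at 138 ± 4.05 and 53.6 ± 4.48 CPM. Col4a5 was under the fold limit without H12 or G7 (-0.99 and -0.92), and Col4a6 lost its call without A4 library 2, 3 or 4 (adjusted p up to 0.0688). The cell surface proteoglycans Gpc4 (-1.54, SE 0.40) and Sdc2 (-1.36, SE 0.33) and the metalloprotease Adamts10 (-1.14, SE 0.21) were also below all other libraries. Adamts10 was the 1 call among 28 tested matrix proteases and inhibitors, beside 1.72% of all genes lower. Of the 28, 15 were positive, and their median was 0.11 (-0.22 against D8, 0.18 against H12 and 1.17 against G7). None of 23 tested integrins and laminins was called (median -0.04). Adamts10 held without each library and was under the fold limit without D8 (-0.96). Gpc4 lost its call without each A4 library in turn (adjusted p up to 0.117), and Sdc2 without library 2, 3 or 4 (up to 0.0965) or, by the fold limit, without G7 (-0.95).

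Of adhesion genes, 2 of 24 tested cadherins and protocadherins (median -0.30) and 2 of 29 claudins and tight junction genes (median 0.30) were called, all lower, beside 1.72% of all genes. The median of the claudin list was 0.08 without A4 library 1 and was 0.12 against D8, -0.03 against H12 and 0.87 against G7, and that of the cadherins was -0.09, -0.23 and -0.67 in the same order. Cldn1, a sealing claudin, was at 2.78, 1.67, 4.08 and 2.26 CPM in A4, 26.3 ± 2.82 in D8, 9.3 ± 1.22 in H12 and 66.3 ± 12.8 in G7 (log2 fold change -3.65, SE 0.74, adjusted p = 0.00886), and kept its call without each library and each clone. The junctional Jam3 was at 1.1 to 1.86 CPM against 1.62 to 8.76 (-1.96, SE 0.44, adjusted p = 0.0152), overlapping G7. The clustered protocadherins Pcdhb20 and Pcdhb22 were below all others (-1.38, SE 0.25, and -1.12, SE 0.29), as was Pcdhgb7 at 0 to 0.218 CPM (-2.89, SE 0.62). The neural adhesion gene Ncam1 was at 10.5, 9, 6.45 and 7.35 CPM against 21.4 to 88.7 (-2.43, SE 0.50, adjusted p = 0.00887) and the endocytic adaptor Dab2 at 62.2 to 70.6 CPM against 112 to 366 (-1.76, SE 0.33, adjusted p = 0.00665), both held without each library and each clone. Jam3 and Pcdhb22 lost their calls without A4 library 2, 3 or 4 (adjusted p up to 0.114), and Pcdhb22 was under the fold limit without G7 (-0.74). Pcdhgb7, Ncam1 and Dab2 were picked after their values were seen.

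Of 47 tested guidance ligands and receptors, Sema3a and Sema3d were called lower, beside 1.72% of all genes, while 27 were positive and the median was 0.11 (0.07 against D8, 0.00 against H12 and 0.43 against G7). Sema3a, a repulsive guidance cue of nerves and of ureteric bud branching, was at 9.5, 5.87, 5.16 and 4.46 CPM in A4, 18.3 ± 2.02 in D8, 129 ± 13.3 in H12 and 58.3 ± 12.4 in G7 (log2 fold change -3.45, SE 0.71, adjusted p = 0.00913, 0.0506 without A4 library 4). Tgfb2, a TGF-beta ligand, was at 0.273 to 0.81 CPM against 0.995 to 10 (-3.22, SE 0.69, adjusted p = 0.0117, 0.055 without A4 library 3). Stc2, a secreted glycoprotein of the stress response, was at 2.73 to 3.12 CPM against 8.22 to 62.7 (-3.03, SE 0.58, adjusted p = 0.00708) and held without each library and clone. Of 33 tested EGF and FGF family genes Fgf18 (-1.99, SE 0.41) and Fgf11 (-1.279, SE 0.23) were called lower although 24 were positive and the median was 0.44 (-0.47 against D8, 0.52 against H12 and 1.72 against G7), of 17 VEGF, PDGF and angiopoietin genes Figf (-1.69, SE 0.40) and Pdgfc (-1.39, SE 0.29), and of 35 BMP and TGF-beta genes Fstl1 beside Tgfb2, with 2 counts in A4 against 170 elsewhere. Scaled with the ciliated mutants, Fstl1 had means of 0.27, 0.28 and 1.79 CPM in D8, H12 and G7, beside 0.027 in A4. It was tested in 12 of the 16 fits without 1 library. Fgf11 kept its call without each library, whereas Fgf18 (without A4 library 4, adjusted p = 0.0572), Figf and Pdgfc (without A4 library 2, 3 or 4, up to 0.0882) and Fstl1 (without each A4 library in turn, up to 0.118) did not. The natriuretic peptide clearance receptor Npr3, picked after its values were seen, was at 31.7 to 41.6 CPM against 74 to 628 (-2.87, SE 0.75, adjusted p = 0.0303), a call lost without each A4 library in turn (up to 0.113).

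In Wnt signaling, 3 of 38 tested genes were called, all lower, beside 1.72% of all genes, with a median of -0.13 that was -0.09 against D8, -0.20 against H12 and 0.03 against G7. Axin2, the usual transcriptional readout of beta-catenin, was at 0.133 to 0.521 CPM in A4 against 0.622 to 2.35 (log2 fold change -1.77, SE 0.41, adjusted p = 0.0179). Dkk3, a secreted glycoprotein of the Dickkopf family, was at 9.55, 13.1, 9.99 and 11.9 CPM against 17.3 to 34.2 (-1.14, SE 0.19, adjusted p = 0.00282), and was under the fold limit without G7 (-0.97). Dact3, an inhibitor of the pathway, was at 0.232 to 0.71 CPM and overlapped the others (-1.38, SE 0.39, adjusted p = 0.0415). Axin2 lost its call without A4 library 2, 3 or 4 (adjusted p up to 0.0754), and Dact3 kept its call in 9 of 16 fits (up to 0.165). No A4 library reached the count filter for Axin2, so that its call is a description.

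Of 39 tested members of a list of kidney development transcription factors, Eya1 and Irx1 were called lower (beside 1.72% of all genes). The one higher call (beside 0.527%) was Pitx1, described above as a factor of hindlimb and pituitary development. Eya1, which acts with homeodomain partners at the outset of kidney formation, was at 13.2, 13.5, 12.1 and 10.5 CPM in A4, 25.2 ± 0.69 in D8, 29.6 ± 2.29 in H12 and 73.5 ± 7.7 in G7 (log2 fold change -1.80, SE 0.40, adjusted p = 0.0143). Irx1, an Iroquois factor of the intermediate nephron, was at 3.76 to 6 CPM against 6.3 to 19.4 (-1.275, SE 0.31, adjusted p = 0.0213). Both lost their calls without A4 library 2, 3 or 4 (adjusted p up to 0.097), and Irx1 was under the fold limit without H12 (-0.91). No Hox gene was called among 23, with a median of -0.49 that was -0.01 against D8, -0.58 against H12 and -0.54 against G7. For A4 library 1 the Hox median was -0.06 against the mean of the 12 others, and for libraries 2, 3 and 4 it was -0.47, -0.58 and -0.52.

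Since these controls serve a study of ciliary genes, 82 tested genes of ciliary transport and the transition zone were listed, and 4 were called, all lower, beside 1.72% of all genes. Bbs7, a BBSome subunit, was at 4.15, 2.53, 4.03 and 3.65 CPM in A4, 5.5 ± 0.511 in D8, 11.2 ± 0.941 in H12 and 7.95 ± 1.15 in G7 (log2 fold change -1.19, SE 0.27, adjusted p = 0.0143). The transition zone gene Cc2d2a (-1.27, SE 0.29), the IFT-B gene Ttc30a1 (-1.67, SE 0.37) and the ciliary adenylate cyclase Adcy3 (-1.07, SE 0.25) overlapped the other libraries. Bbs7 lost its call without A4 library 2 or 4, Cc2d2a without 3 or 4, Ttc30a1 without 3 and Adcy3 without 2 or 4 or H12 library 2 (adjusted p up to 0.0909), and Bbs7 and Adcy3 were under the fold limit without H12 (-0.91 and -0.82). Set against single clones, 1 of the 82 was called against D8 (6.56% of all genes), 6 against H12 (9.92%) and 7 against G7 (20.7%), at medians of -0.12, -0.22 and -0.09. No Hedgehog gene was called among 14 tested.

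Complement and acute phase genes went both ways, with C3 higher (0.527% of all genes) and Cp, Cd59a and Cfp lower (1.72% of all genes) of 14 tested. Ceruloplasmin, Cp, was at 26.8, 35.5, 45.5 and 38.5 CPM in A4 against 67.9 to 200 (log2 fold change -1.58, SE 0.32, adjusted p = 0.00833), a call kept without each library. Its means in the ciliated Wdr34 clone labelled 1 and the Wdr60 clone were 34.3 and 29.7 CPM, beside 36.7 in A4. Cd59a, an inhibitor of complement lysis, was at 1.07 to 2.53 CPM against 2.67 to 10.3 (-1.98, SE 0.44, adjusted p = 0.014). Properdin, Cfp, was at 1.5 to 2.84 CPM against 3.08 to 7.47 (-1.18, SE 0.28, adjusted p = 0.0184). Cd59a lost its call without A4 library 3 or 4 (adjusted p up to 0.0765) and Cfp without 2, 3 or 4 (up to 0.0981) or, by the fold limit, without H12 (-0.88). The median of the list, -0.82, became 0.24 without G7 and was -0.18 against D8, 0.55 against H12 and -0.91 against G7. Of the Golgi and vesicle list, 3 of 56 were called, beside 2.25% of all genes, the palmitoyltransferase Zdhhc14 higher (1.06, SE 0.22) and the coatomer subunit Copz2 (-2.95, SE 0.74) and the motor Myo5c (-1.62, SE 0.42) lower. The G-protein regulators Rgs2 (-2.09, SE 0.54) and Rgs9 (-1.51, SE 0.39) were lower, at 0.0579 to 0.161 and 0.289 to 0.546 CPM in A4. Copz2 and Rgs9 lost their calls without A4 library 2, 3 or 4, Myo5c and Rgs2 without each A4 library in turn, and Zdhhc14 without library 3 or without G7 by the fold limit (adjusted p of these genes up to 0.132).

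Lists without calls showed where A4 sat among the clones. Of 108 replication and mitosis genes none was called, at a median log2 fold change of -0.22, yet for 10 of them all A4 libraries were below all others (beside 2.93% of all genes), among them Mcm7 at 526 to 574 CPM against 587 to 690 and Top2a at 639 to 686 CPM against 718 to 1020 (adjusted p = 0.0756 and 0.0674). The median was -0.06 against D8, -0.19 against H12 and -0.35 against G7. Epithelial markers had the highest median of all lists, 0.74 over 32 genes with no call, but it was 0.16 against D8, 0.24 against H12 and 4.82 against G7, so that the value rests on the low level in G7. Cytosolic ribosomal protein genes had a median of 0.21 (79 tested, none called), which was -0.004 against D8, 0.24 against H12 and 0.44 against G7. Against the mean of the 12 others it was 0.17, -0.02, 0.20 and 0.55 for A4 libraries 1, 2, 3 and 4. Cholesterol and fatty acid synthesis genes had a median of -0.35 (39 tested, none called), with 0.02 against D8, -0.07 against H12 and -0.62 against G7.

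**Figure D4:**
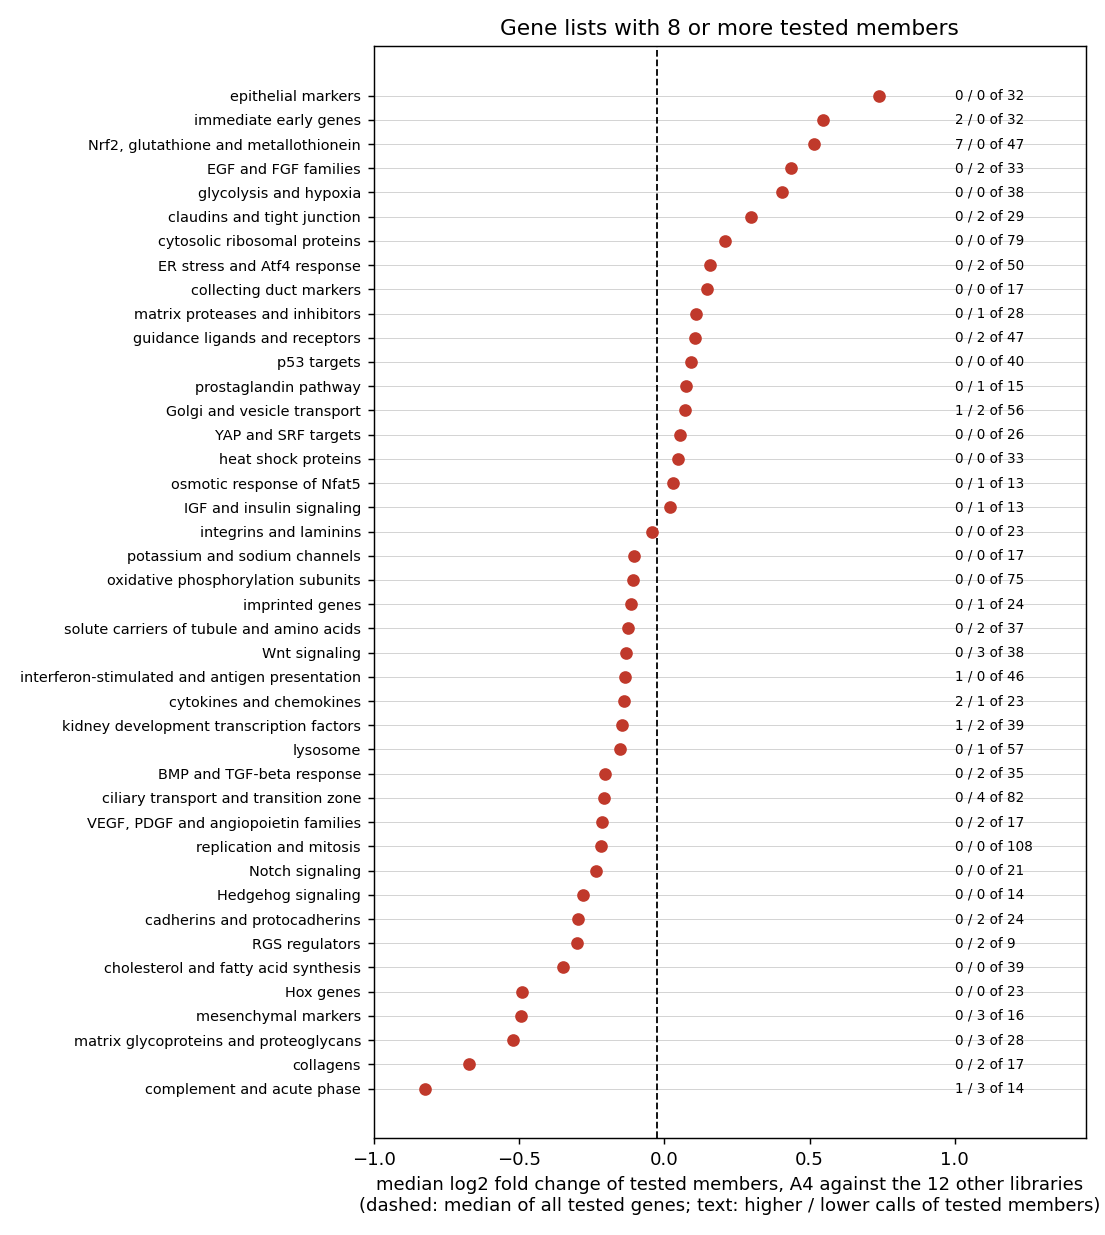
Median log2 fold change of A4 against the 12 other libraries for each gene list with at least 8 tested members (x axis, dashed line: median of all tested genes at -0.03), with the number of members called higher and lower at the right. The Nrf2 list has the most higher calls (7 of 47, with Gsta2 tested only through A4), while the epithelial list has the highest median (0.74) with no call.

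Of the listed markers of other cell types (endothelium, stroma, leukocytes, podocytes and other tubule segments), none was called higher in A4, and Krt5 is in none of these lists. Summed over fibroblast and stroma markers, A4 had 1.2 to 2.35 CPM and the others 1.93 to 33.9, with 3 of 16 markers tested, none called and 5 at 0 in all libraries. Periostin, Postn, had 0 counts in A4, D8 was at 0.0175 CPM, H12 at 0 and G7 at 29.9 ± 2.66. Endothelial markers summed to 23 to 25 CPM in A4 and 8.24 to 44.3 elsewhere, with Plvap lower (0.347 to 0.533 CPM in A4 against 0.363 to 1.73, edgeR adjusted p = 0.046, up to 0.166 without 1 library) as 1 of 4 tested, beside 1.72% of all genes. Leukocyte markers summed to 169 to 250.2 CPM against 194 to 325, with 3 of 19 tested and none called. Of these, the monocyte receptor gene Cd14 was at 26.3 to 28.2 CPM in A4 against 9.53 to 18.8 (log2 fold change 0.99, SE 0.14, adjusted p = 0.00116), above all others and just under the fold limit. Cd14 was called higher without A4 library 1, without H12 library 2 or 4, and without clone H12 (log2 fold change 1.13). Proximal tubule markers summed to 24.8 to 33.3 CPM against 16.6 to 559, with the water channel Aqp1 lower (-3.57, SE 0.81, adjusted p = 0.0154, up to 0.0721 without A4 library 2 or 3) as 1 of 4 tested, beside the same 1.72%. Podocyte markers summed to 184 to 227 CPM against 161 to 202, with 2 of 8 tested and none called, Podxl at 109 to 118 CPM against 13.3 to 145 and Synpo at 65.8 to 118 against 54.3 to 174. Markers of the thick limb, distal tubule and intercalated cells summed to 13.7 to 14.4 CPM against 4.43 to 36.3, with none of 3 called. The part that these levels play in the matrix and mesenchymal results was not tested.

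Differences that run along whole chromosomes were described by the median log2 fold change of the genes on each. Against the 12 others together, the medians ran from -0.15 on the X chromosome (351 genes) to 0.21 on chromosome 1 (676 genes), a range of 0.35. Chromosome 1 was at 0.02 against D8, 0.13 against H12 and 0.53 against G7. Chromosome 3 was at 0.32 against D8 but -0.29 against H12, and chromosome 6 was at 0.38 against H12 but -0.03 against D8. Chromosome 19 was at -0.21 against D8, chromosome 4 at -0.25 and the X chromosome at -0.28 against H12. The 4 A4 libraries gave like values, 0.217, 0.23, 0.265 and 0.279 for chromosome 1, each against the mean of the others. The X chromosome had the highest share of called genes (3.99%, 1 higher and 13 lower), beside 2.25% of all genes, and of the genes above it held Col4a5, Col4a6, Gpc4, Apln, Cfp and Figf, all lower, and G6pdx, which was higher. DNA was not measured, and whether a shift comes from chromosome number or from expression was not tested.

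**Figure D5:**
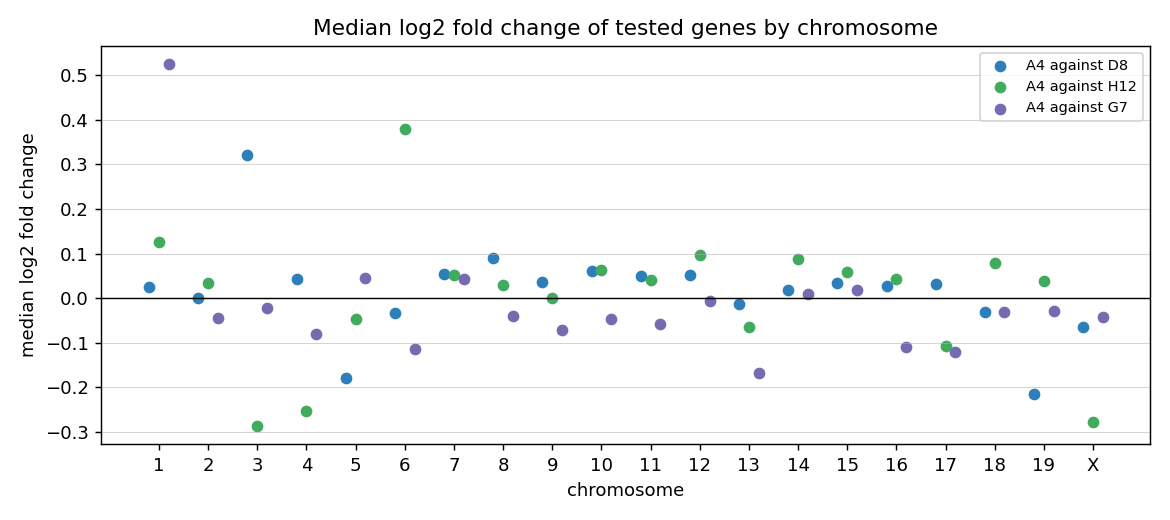
Median log2 fold change of the tested genes of each chromosome (y axis) for A4 against D8, H12 and G7 (colours), with the line at 0. Chromosome 1 stands out against G7 (0.53), chromosome 3 points in opposite directions against D8 (0.32) and H12 (-0.29), and chromosome 6 stands out against H12 (0.38).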

How the data were processed

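RNA of 52 libraries of the Cilia-APEX-IMCD3 line was sequenced by the authors, and the 16 ciliated control libraries (4 clones, 4 technical replicates each) enter here. The other libraries were not used, apart from levels in the 12 ciliated mutant libraries. The deposited values are raw counts per gene symbol, which the authors made with Rsubread and featureCounts on GRCm38 (mm10), per the submitters' processing notes with R 3.4.4 and DESeq2 1.18.1. The strand setting is not given in the sources used here. Of 24421 symbols, 24300 matched RefSeq.

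Groups came from the titles. Counts were filtered with filterByExpr, scaled by TMM and fitted with edgeR 4.0.16 in R 4.3.3 (glmQLFit, 2-sided, Benjamini-Hochberg over 12325 genes), A4 against the 12 others, without a block. Other fits used limma 3.58.1 and DESeq2 1.42.0, other filters, thresholds, designs and left-out libraries or clones. Named genes were the 15 with the largest difference in each direction among called genes that did not overlap and had at least 1 CPM, up to 4 called members of each list, marker and edited genes, and those said to be picked after their values were seen. The members and lists were chosen with earlier results of these data known. With 14816218 to 28084979 counts per library, intervals and floors cover counting error only. No 2 libraries were identical.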

Additional observations from a re-analysis of the deposited data

Results flagged for a closer look

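Of 123 genes examined singly, 5 had 1 A4 library far from the other 3 (past Dixon's 95% critical value for 4 samples, which chance exceeds in about 1 of 20 groups), and in 4 of these it was A4 library 1. Col4a6 was at 45.9 CPM in that library and 37.7 in the next, Pcdhb22 at 5.4 against 4.23, and Pdgfc at 6.82 against 4.13. Cldn4 was at 750.0 CPM in A4 library 1 and 1565 in the next. For Fstl1, A4 library 3 had 0.107 CPM and the others 0. Among library totals, G7 library 4 had 28084979 counts and the next G7 library 16549441.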

How the results depend on the processing

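With the higher and lower calls given in that order, an adjusted p under 0.05 alone gave 367 and 506, one under 0.01 gave 34 and 63, a minimum of 10 counts in every library 31 and 128, the replicate block 42 and 110, and 1 coefficient per clone 666 and 431. With at least 1 count in any library 136 genes were higher, and DESeq2 gave 412 lower. With size factors by RLE they were 62 and 213. With the clones summed (edgeR, 141 genes at an unadjusted p under 0.05) or as a block (voomLmFit, 419) they were 0 and 0. Leaving out 1 library gave 30 to 88 higher, 68 to 234 lower and 758 to 1611 without overlap, the last without A4 library 1. Leaving out D8 gave 480 and 556 with 2809 without overlap, H12 114 higher with 1374, and G7 107 and 407 with 1482. The range of chromosome medians was 0.498 without D8 and 0.396 without H12. With at least 10 counts in every library, A4 differed from D8 in 307 genes, from H12 in 677 and from G7 in 1645. Called list members were 61, and 109 with DESeq2, 266 with 1 coefficient per clone, 252 without D8, 92 without H12 and 96 without G7. Over all genes the higher and lower calls were 65 and 212 in the main fit, 76 and 412 with DESeq2 and 114 and 265 without H12. Those of the other fits are given above. Without G7 the uncalled log2 fold changes of Wdr34 (-0.036), Wdr60 (-0.028), Pax2 (0.089) and Pax8 (0.026) changed sign. The cause of these shifts was not tested. The replicate numbers did not pair the libraries: of 12 same-numbered pairs, 2 had a correlation of deviations over 0.1 (range -0.133 to 0.207), and 5 correlated best with their own number.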
